A study of Homo sapiens with 12 samples.

Results

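The human mitochondrial chromosome (chrM in hg38, 16569 bases) carries 37 genes, namely 13 that encode proteins of oxidative phosphorylation, 2 that encode the ribosomal RNAs of the mitochondrial ribosome and 22 that encode its tRNAs. All 37 were present among the 63541 gene IDs for which estimated counts were deposited, and they were taken by their symbols, which begin with MT-, and not by any measured value. They were quantified in 12 RNA-seq libraries of HEK293T cells, a transformed line of human embryonic kidney origin, collected 48 h after transfection with 12.5 nM siRNA by Lipofectamine RNAiMAX. A scramble siRNA, or 1 of 3 that target snaR-A (labelled si-snaR-A#1, si-snaR-A#2 or si-snaR-A#3), a short noncoding RNA made by RNA polymerase III, was used, each in 3 replicates that the study calls biological. All groups came from this 1 line in the same medium and differ in the labels by the siRNA alone, and the scramble cells had been transfected too. Total RNA was depleted of rRNA and then enriched for poly(A)+ RNA before stranded libraries were made. Whether the depletion covered the mitochondrial rRNAs is not given in the sources used here.

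Libraries held between 120368367 and 180111992 counts, and replicates differed by more than counting error. The table held 0 gene IDs with a symbol for snaR-A, so depletion of the target could not be checked in these counts and the siRNA groups are named by their labels. Of the markers of the labelled kidney epithelial line, KRT18 averaged 31.2 CPM (counts scaled to the normalised library size), while EPCAM averaged 1.90 CPM and PAX8 0.0258 CPM, which is close to absent. Neurofilament and LIN28B transcripts known from HEK293 cells were present (NEFM 335 CPM, LIN28B 184 CPM), and of 7 markers of blood, endothelium, liver and fibroblasts only COL1A1 was above 1 CPM, at 20.4 CPM.

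Both strands of the mitochondrial chromosome are transcribed by a dedicated RNA polymerase, POLRMT, into long precursors that cover many genes. Most mRNAs and rRNAs are flanked by tRNAs, and excision of the tRNAs frees the transcripts between them. The 2 rRNA genes lie next to the heavy-strand promoters, and part of the transcription has been proposed to end after them. The mature mRNAs have no introns and almost no untranslated sequence. Most receive a short poly(A) tail, which in several cases supplies the missing bases of the stop codon, whereas the mRNA of MT-ND6, the only one read from the opposite strand, is known to lack a stable tail. Because steady-state levels depend on copy number of the genome, transcription, processing and decay, fewer mitochondrial genomes per cell and less RNA per genome cannot be told apart in RNA from a whole culture.

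Sequence features that bear on how these RNAs were captured and counted are shown for the genes on which the results turn, from hg38 and 5′ to 3′ on the coding strand. The first pair shows where neighbouring genes share bases, so that reads could be split between them by the assignment. Capitals mark the MT-ATP6 start codon, which lies inside MT-ATP8 (46 bases belong to both genes), and the 7 bases shared by the end of MT-ND4L and the start of MT-ND4.
MT-ATP6 start in MT-ATP8 (chrM:8514-8543, + strand): cctgagaaccaaaATGaacgaaaatctgtt
MT-ND4L end and MT-ND4 start (chrM:10749-10778, + strand): aacctactccaATGCTAAaactaatcgtcc
The next 5 show the last 24 bases of the annotated mRNAs that stood out below, with the last bases of the reading frame in capitals. MT-ND1, MT-ND3 and MT-CYB end in an incomplete stop codon that only polyadenylation completes, as do 6 of the 13 mRNAs (5 end in T and 1 in TA), whereas MT-CO2 ends in a complete one. MT-ND6 ends in AGG and is read from the minus strand.
MT-ND1 3′ end (chrM:4239-4262, + strand): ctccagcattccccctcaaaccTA
MT-ND3 3′ end (chrM:10381-10404, + strand): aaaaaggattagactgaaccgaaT
MT-CO2 3′ end (chrM:8246-8269, + strand): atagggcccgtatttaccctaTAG
MT-CYB 3′ end (chrM:15864-15887, + strand): aaaacaaaatactcaaatgggccT
MT-ND6 3′ end (chrM:14149-14172, - strand): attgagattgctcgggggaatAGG
The other overlaps on the chromosome were of 1 to 3 bases. Use of strand in the assignment is not given in the sources used here, so counts of MT-ND6 may hold reads of the transcript that runs antisense to it.

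Mitochondrial genes took several percent of all counts in every library. The share was 5.55%, 6.05% and 4.78% in the scramble libraries, 4.27%, 3.66% and 4.53% under si-snaR-A#1, 5.82%, 5.00% and 5.00% under si-snaR-A#2 and 4.06%, 4.84% and 5.83% under si-snaR-A#3. Every si-snaR-A#1 library lay below every scramble library (4.15% ± 0.449 against 5.46% ± 0.641, SD, n = 3), whereas the ranges of the other groups overlapped that of scramble (5.28% ± 0.470 under si-snaR-A#2 and 4.91% ± 0.888 under si-snaR-A#3, SD, n = 3). No p-value is given for the share, because it sums over the members. It is also a part of a whole and falls when nuclear transcripts rise. Without scramble replicate 2 the difference of si-snaR-A#2 from scramble turned from -0.183 to 0.112 percentage points, so its direction rested on that library. The difference of si-snaR-A#3, -0.553 percentage points with all libraries, was -0.128 without si-snaR-A#3 replicate 1, -0.257 without scramble replicate 2, -0.893 without scramble replicate 3 and -1.01 without si-snaR-A#3 replicate 3.

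By kind of RNA, the difference was clearest for rRNA. The mRNA share was 4.03%, 4.38% and 3.33% in scramble and 3.13%, 2.62% and 3.41% under si-snaR-A#1, so the groups overlapped in 1 library. The rRNA share was 1.52%, 1.67% and 1.44% in scramble, 1.13%, 1.03% and 1.12% under si-snaR-A#1, 1.88%, 1.70% and 1.62% under si-snaR-A#2 and 1.24%, 1.53% and 1.69% under si-snaR-A#3. For rRNA, all 3 si-snaR-A#1 libraries were below all 9 others. Among mitochondrial counts alone, rRNA made up 28.4% ± 1.59 in scramble, 26.5% ± 1.72 under si-snaR-A#1, 32.9% ± 1.03 under si-snaR-A#2 and 30.4% ± 1.26 under si-snaR-A#3 (SD, n = 3 each), and only si-snaR-A#2 stood clear of scramble, on the high side. The 22 tRNAs together took at most 9.4e-05% of a library.

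**Figure D1:**
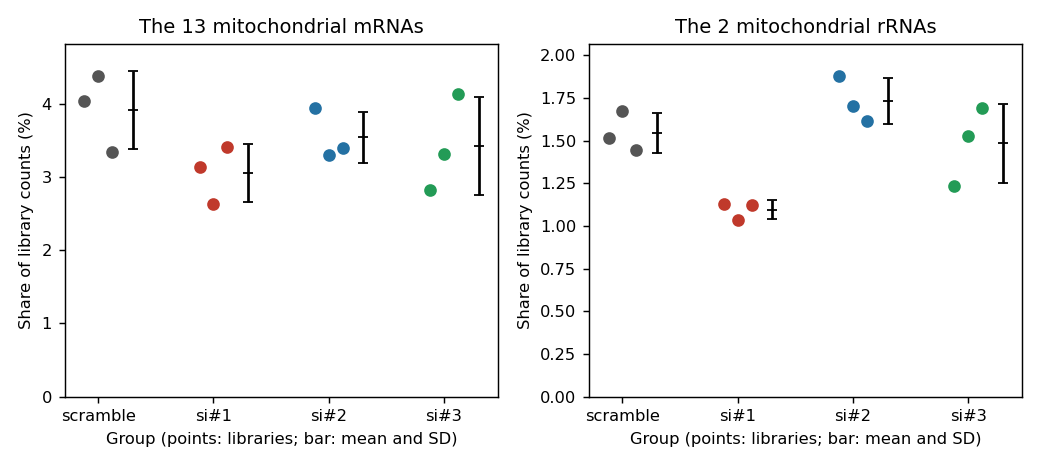
Share of library counts (%) taken by the 13 mitochondrial mRNAs (left) and the 2 mitochondrial rRNAs (right) in each group, with points for the 3 libraries and bars for mean and SD. The 3 si-snaR-A#1 libraries lie at 1.03% to 1.13% for rRNA, below every other library, while the mRNA shares of the groups overlap.

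Members differed widely in level. Per length, as CPM per kilobase, the most abundant in scramble were MT-ATP8 at 8051 ± 1388 and MT-RNR2, the large rRNA, at 8022 ± 709, followed by MT-CO2 at 6058 ± 634 (SD, n = 3 each). The scramble libraries of MT-RNR2 lay above those of MT-CO2, while those of MT-ATP8, a gene of 207 bases that shares reads with MT-ATP6, overlapped both. MT-CO2, MT-CO1, MT-ATP6 and MT-ND4 formed a run in which each overlapped its neighbour. MT-RNR1, the small rRNA, came to 2832 ± 195 and overlapped MT-ND4L at 3176 ± 436. At the low end, MT-ND1 was at 1396 ± 187 and MT-ND6 at 585 ± 23.6, each clear of its neighbour above. That neighbour of MT-ND1 was MT-ND3, and MT-ND1 still overlapped MT-CYB, which was higher at 1720 ± 249. MT-ND6 was also lowest with each siRNA. On plain CPM, MT-RNR2, MT-CO1 and MT-ND4 ranked 2nd, 3rd and 4th among all genes over the 12 libraries, and MT-ND6 ranked 486th.

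**Figure D2:**
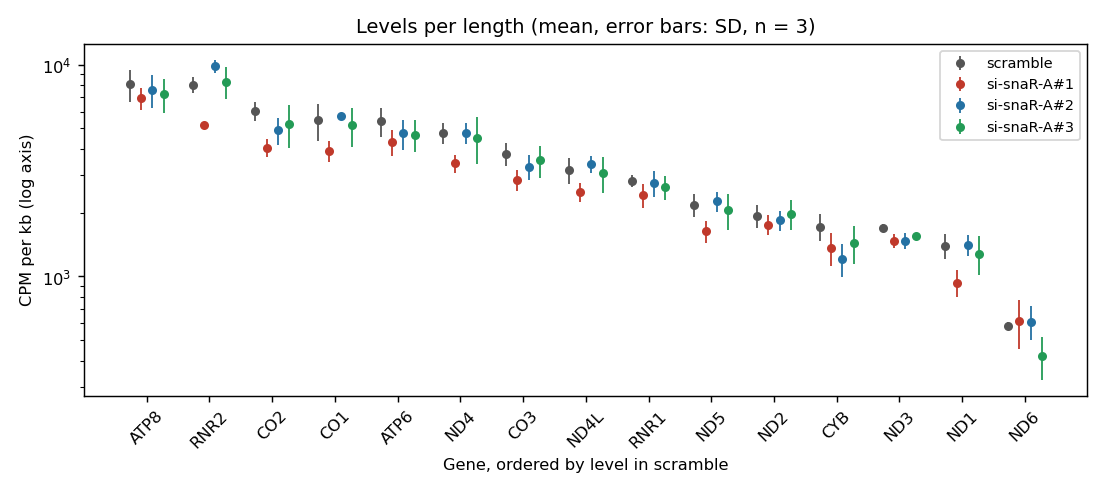
Level per length (CPM per kilobase, log axis) of the 13 mRNAs and 2 rRNAs in each group, as mean with SD over 3 libraries, ordered by the scramble level. The scramble means fall from 8051 for MT-ATP8 to 585 for MT-ND6, and the si-snaR-A#1 points lie below scramble for every gene but MT-ND6.

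Which members differed from scramble depended on the siRNA. Of the 37 genes, 19 had enough counts to be tested (13 mRNAs, 2 rRNAs and 4 tRNAs), and calls were made where the adjusted p stayed under 0.05 (edgeR quasi-likelihood test, Benjamini-Hochberg over 21999 genes). Under si-snaR-A#1, 8 were called lower (MT-RNR2, MT-ND1, MT-ND3, MT-ND4, MT-ND5, MT-CO1, MT-CO2 and MT-CO3) and 0 higher, beside 23.3% of all genes tested called lower and 45.2% called either way. Under si-snaR-A#2, MT-ND3 and MT-CYB were called lower and 0 were called higher, beside 12.1% of all genes called lower and 25.8% called either way. Under si-snaR-A#3, edgeR called 0 members, beside 29.4% of all genes, with 1 member at an unadjusted p under 0.05 (MT-ND6) and 0 called by DESeq2. In the mean of the 3 siRNAs, MT-CO2 and MT-ND3 were called lower, beside 16.6% of all genes called lower and 32.2% called either way. The members called made up 42.1%, 10.5%, 0% and 10.5% of those tested in these 4 comparisons, each below the share of all genes called. By the libraries themselves, 10 of the 19 lay wholly below scramble under si-snaR-A#1 and 0 wholly above it, beside 27.3% and 25.6% of all genes. Under si-snaR-A#2 these were 2 and 1, beside 22% and 21.3%, and under si-snaR-A#3 2 and 0, beside 21.4% and 22%. All 9 siRNA libraries lay below scramble for 1 gene and above it for 0, beside 5.5% and 6.62%.

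Leaving out single libraries changed these counts. The shares of all genes called in those fits are not given here, so the changes cannot be read as particular to the members. The si-snaR-A#1 calls of MT-RNR2, MT-CO2 and MT-ND1 held in all 21 alternatives run, among them the loss of each library in turn. They were the only 3 of the 8 left without scramble replicate 2 or si-snaR-A#1 replicate 2, and MT-ND4 was the only other one left without scramble replicate 1. Under si-snaR-A#2, 0 members were called without scramble replicate 1, si-snaR-A#2 replicate 2 or si-snaR-A#3 replicate 2, and 1 without any of 6 other libraries. In 2 of those 6 the gene called was higher, namely MT-RNR2 without scramble replicate 2 and, without si-snaR-A#2 replicate 3, a gene outside the 19 that passed the filter on low counts there. Without si-snaR-A#3 replicate 1 or 3 the count stayed at 2, but 1 of the 2 was then MT-RNR2, higher, in place of MT-ND3. The mean of the 3 siRNAs gave 0 calls without scramble replicate 1 or scramble replicate 2, and 4 without si-snaR-A#3 replicate 3. Under si-snaR-A#3, 1 was called without si-snaR-A#1 replicate 2 (MT-ND6) and 1 without si-snaR-A#3 replicate 3 (MT-CO2).

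**Figure D3:**
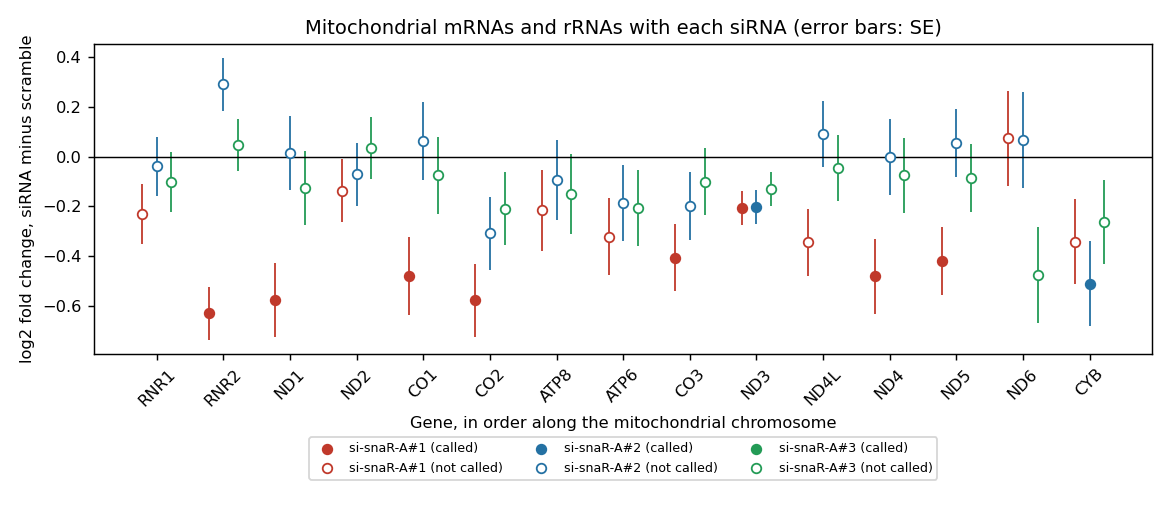
Log2 fold change against scramble (error bars, SE) of the 2 rRNAs and 13 mRNAs with each siRNA, in chromosomal order, with filled points for genes called at an adjusted p under 0.05 by edgeR. Under si-snaR-A#1, 14 of the 15 points lie below 0 and 8 are filled, MT-RNR2 lowest at -0.63, while MT-CYB is the lowest point under si-snaR-A#2 (-0.51) and MT-ND6 under si-snaR-A#3 (-0.48).

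The large rRNA showed the clearest contrast between siRNAs. MT-RNR2, the RNA at the core of the large mitochondrial ribosomal subunit, had CPM values of 12243, 13721 and 11557 in scramble, 8425, 7903 and 7932 under si-snaR-A#1, 16472, 15080.1 and 14313 under si-snaR-A#2 and 10581, 13188 and 14955 under si-snaR-A#3. The si-snaR-A#1 libraries were below, and the si-snaR-A#2 libraries above, every scramble library, and si-snaR-A#3 overlapped scramble. It fell under si-snaR-A#1 with a log2 fold change of -0.63 (SE 0.11, adjusted p = 3.27e-04) by edgeR. Under si-snaR-A#2 the log2 fold change was 0.29 (SE 0.11, adjusted p = 0.0629) by edgeR, which missed the threshold, though it was called by DESeq2 (adjusted p = 0.00632) and by edgeR's exact test (adjusted p = 0.0282). Under si-snaR-A#3 it was 0.05, and -0.0076 with upper quartile scaling. Compared directly, MT-RNR2 was lower under si-snaR-A#1 than under si-snaR-A#2 with a difference of -0.92 (SE 0.11, adjusted p = 1.39e-05) and than under si-snaR-A#3 with a difference of -0.67 (SE 0.11, adjusted p = 1.71e-04) on the log2 scale by edgeR, and both calls held in all 21 alternatives.

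The small rRNA, MT-RNR1, differed less from scramble. It had CPM values of 2553, 2911 and 2643 in scramble, 2538, 1983 and 2392 under si-snaR-A#1, 3053, 2489 and 2342 under si-snaR-A#2 and 2130.3, 2674 and 2746 under si-snaR-A#3. All 3 si-snaR-A#1 libraries were below the lowest scramble library, but the log2 fold change of -0.23 (SE 0.12, adjusted p = 0.141) by edgeR was not called. Under the other siRNAs its log2 fold changes were -0.04 and -0.10, neither called.

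Complex I, which passes electrons from NADH to ubiquinone, takes 7 of its subunits from this chromosome, and 4 of their mRNAs were called lower under si-snaR-A#1. MT-ND1 had CPM values of 1355, 1502 and 1147 in scramble, 939, 751 and 995 under si-snaR-A#1, 1516, 1240.1 and 1287 under si-snaR-A#2 and 988, 1188 and 1496 under si-snaR-A#3 and fell under si-snaR-A#1 with a log2 fold change of -0.58 (SE 0.15, adjusted p = 0.00675) by edgeR. The si-snaR-A#1 libraries were all below scramble, and the other groups overlapped it. MT-ND4 had CPM values of 6529, 7331 and 5847 in scramble, 4886, 4199.5 and 5031 under si-snaR-A#1, 7458, 6180.2 and 6047 under si-snaR-A#2 and 4804, 6019.8 and 7872 under si-snaR-A#3 and fell under si-snaR-A#1 with a difference of -0.48 (SE 0.15, adjusted p = 0.0200) on the log2 scale by edgeR. MT-ND5 had CPM values of 3966, 4440.0 and 3453 in scramble, 3067, 2558 and 3243 under si-snaR-A#1, 4608, 3791 and 3911 under si-snaR-A#2 and 3105, 3543 and 4522 under si-snaR-A#3 and fell under si-snaR-A#1 with a difference of -0.42 (SE 0.14, adjusted p = 0.0243) on the log2 scale by edgeR. For both, no si-snaR-A#1 library reached a scramble library, and neither call held without scramble replicate 2 (adjusted p = 0.0841 for MT-ND4 and 0.105 for MT-ND5) as well as si-snaR-A#1 replicate 2 (0.0779 and 0.09969). MT-ND5 was lost without scramble replicate 1 too (adjusted p = 0.0528).

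MT-ND3, a small complex I subunit, was the one member with all 9 siRNA libraries below all 3 scramble libraries, a pattern seen in 5.5% of all genes tested. It had CPM values of 591, 613 and 559 in scramble, 555, 481 and 493 under si-snaR-A#1, 558, 467 and 507 under si-snaR-A#2 and 526, 531 and 554 under si-snaR-A#3. Log2 fold changes of MT-ND3 were -0.21 (SE 0.068, adjusted p = 0.0252) under si-snaR-A#1, -0.20 (SE 0.068, adjusted p = 0.0436) under si-snaR-A#2 and -0.13 (SE 0.068, adjusted p = 0.173) under si-snaR-A#3 by edgeR, of which the first and the second were called. The decreases were small, and MT-ND3 varied less between replicates than any other mRNA in the fit. In the mean of the 3 siRNAs it fell with a difference of -0.18 (SE 0.055, adjusted p = 0.0237) on the log2 scale by edgeR, and it passed no longer without scramble replicate 1 (adjusted p = 0.0783) or scramble replicate 2 (adjusted p = 0.128). The si-snaR-A#2 call was lost in 12 of 21 alternatives, with an adjusted p up to 0.186 without si-snaR-A#2 replicate 2. The si-snaR-A#1 call was lost without scramble replicate 1 or 2 or si-snaR-A#1 replicate 2 or 3, with an adjusted p up to 0.1001.

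The remaining complex I mRNAs were not called against scramble by edgeR's quasi-likelihood test with all libraries. MT-ND2 had a log2 fold change under si-snaR-A#1 of -0.14, with -0.07 under si-snaR-A#2 and 0.03 under si-snaR-A#3. MT-ND4L, whose mRNA also carries the MT-ND4 reading frame, had a log2 fold change of -0.35 (SE 0.13, adjusted p = 0.0501) under si-snaR-A#1 by edgeR, with all 3 libraries below scramble, and it was called in 6 of 21 alternatives (lowest adjusted p = 0.0141). MT-ND6, the minus-strand mRNA, had CPM values of 295, 320.0 and 307 in scramble, 337, 233 and 400.1 under si-snaR-A#1, 388, 293 and 285 under si-snaR-A#2 and 164, 257 and 242 under si-snaR-A#3. Under si-snaR-A#1 its libraries lay on both sides of scramble (0.07), and under si-snaR-A#3 all were below scramble at a log2 fold change of -0.48 (SE 0.19, adjusted p = 0.0829) by edgeR, which was not called, though it was in 3 of 21 alternatives, edgeR's exact test among them (adjusted p = 0.0488). MT-ND6 was higher under si-snaR-A#1 than under si-snaR-A#3 by 0.55 (SE 0.19, adjusted p = 0.0320) on the log2 scale by edgeR, although the libraries of these groups overlapped, and this call held in 17 of 21 alternatives.

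All 3 mitochondrial mRNAs of complex IV, cytochrome c oxidase, were called lower under si-snaR-A#1. MT-CO2 encodes the subunit that takes electrons from cytochrome c and had CPM values of 4157, 4570.3 and 3703 in scramble, 2937, 2470.0 and 2921 under si-snaR-A#1, 3893, 2974 and 3166 under si-snaR-A#2 and 2842, 3446 and 4460.3 under si-snaR-A#3. It fell under si-snaR-A#1 with a difference of -0.58 (SE 0.15, adjusted p = 0.00626) and in the mean of the 3 siRNAs with a difference of -0.37 (SE 0.12, adjusted p = 0.0311) on the log2 scale by edgeR. No si-snaR-A#1 library reached scramble, whereas 1 library of each other siRNA lay within the scramble range. The call in the mean was lost without any of 6 libraries, with an adjusted p up to 0.162 without scramble replicate 2. MT-CO1, which encodes the catalytic subunit, fell under si-snaR-A#1 with a difference of -0.48 (SE 0.16, adjusted p = 0.0243), and MT-CO3 fell with a difference of -0.41 (SE 0.14, adjusted p = 0.0268) on the log2 scale by edgeR. Their calls were lost without scramble replicate 1 (adjusted p = 0.0705 for MT-CO1 and 0.0673 for MT-CO3), scramble replicate 2 (0.114 and 0.110) or si-snaR-A#1 replicate 2 (0.0953 and 0.107). For MT-CO1 the groups overlapped, as si-snaR-A#1 replicate 3 (6616 CPM) lay above scramble replicate 3 (6521 CPM). No si-snaR-A#1 library of MT-CO3 reached scramble. Under si-snaR-A#2 and si-snaR-A#3 the log2 fold changes of MT-CO1 were 0.06 and -0.08, and those of MT-CO3 were -0.20 and -0.10, none called.

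MT-CYB encodes cytochrome b, the only subunit of complex III from this chromosome, and it was the mRNA that stood out under si-snaR-A#2. It had CPM values of 1996, 2229 and 1664 in scramble, 1640.4, 1240.2 and 1763 under si-snaR-A#1, 1648, 1183 and 1302 under si-snaR-A#2 and 1351, 1555 and 2001 under si-snaR-A#3. All 3 si-snaR-A#2 libraries were below scramble, whereas the other siRNAs overlapped it. It fell under si-snaR-A#2 with a difference of -0.51 (SE 0.17, adjusted p = 0.0434) on the log2 scale by edgeR, with -0.34 (SE 0.17, adjusted p = 0.122) under si-snaR-A#1 and -0.26 (SE 0.17, adjusted p = 0.276) under si-snaR-A#3. The si-snaR-A#2 call was lost with DESeq2 (adjusted p = 0.0525), with the replicate number as a block (adjusted p = 0.0558) and without any of 6 libraries, with an adjusted p up to 0.162 without si-snaR-A#2 replicate 2.

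The complex V (ATP synthase) mRNAs, MT-ATP8 and MT-ATP6, sit in a shared transcript and were not called in any comparison by edgeR's quasi-likelihood test with all libraries. MT-ATP6 had a log2 fold change of -0.32 (SE 0.15, adjusted p = 0.109) under si-snaR-A#1 by edgeR, and was called there without scramble replicate 3 (adjusted p = 0.0454). MT-ATP8 had one of -0.22 (SE 0.16, adjusted p = 0.306) by edgeR. Both are uncertain, because their reading frames overlap as shown above and because a nuclear copy of MT-ATP6 is close to identical to it.

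The siRNAs were also compared with each other. For si-snaR-A#1 against si-snaR-A#2, 6 members were called, all lower under si-snaR-A#1 (MT-RNR2, MT-ND1, MT-ND4, MT-ND4L, MT-ND5 and MT-CO1), beside 23% of all genes called lower and 46.7% either way. MT-ND1 differed with a difference of -0.59 (SE 0.15, adjusted p = 0.00566) and MT-CO1 with a difference of -0.54 (SE 0.16, adjusted p = 0.0123) on the log2 scale by edgeR. Leaving out si-snaR-A#1 replicate 2 gave a count of 4, and leaving out si-snaR-A#2 replicate 1 a count of 3. The count was 7 without si-snaR-A#1 replicate 3 or si-snaR-A#2 replicate 3. For si-snaR-A#1 against si-snaR-A#3, 5 were lower (MT-RNR2, MT-ND1, MT-ND4, MT-CO1 and the tRNA MT-TF) and 1 higher (MT-ND6), beside 24.8% of all genes lower, 23.8% higher and 48.6% either way. That count was 2 without si-snaR-A#1 replicate 1 or 2 or si-snaR-A#3 replicate 3, 3 without si-snaR-A#3 replicate 2, and 4 without scramble replicate 1 or si-snaR-A#2 replicate 2. It was 5 without si-snaR-A#2 replicate 3, and it rose to 9, all lower under si-snaR-A#1, without si-snaR-A#3 replicate 1. For si-snaR-A#2 against si-snaR-A#3, edgeR called 0 members, beside 15.6% of all genes (6.52% higher and 9.03% lower), with 2 at an unadjusted p under 0.05 and 1 called by DESeq2. The count there was 1 without si-snaR-A#1 replicate 2 or 3, si-snaR-A#2 replicate 3 or si-snaR-A#3 replicate 3.

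Scaling to nuclear RNA can be set aside by taking each mRNA as a share of the 13-mRNA pool. These shares are given as log2 differences from scramble with no test, since they sum to a whole. MT-CO2 took a smaller share with every siRNA, with a difference of -0.17 under si-snaR-A#1, -0.25 under si-snaR-A#2 and -0.10 under si-snaR-A#3, with no overlap with scramble in any of the 3. MT-CYB took a smaller share under si-snaR-A#2 (-0.45) and si-snaR-A#3 (-0.15), both without overlap, but not under si-snaR-A#1 (0.06). MT-ND2 took a larger share under si-snaR-A#1 (0.27) and si-snaR-A#3 (0.15), again without overlap. MT-ND1 took a smaller share under si-snaR-A#1 (-0.17) and a larger one under si-snaR-A#2 (0.08), both without overlap. Under si-snaR-A#1, MT-ATP8 (0.20) and MT-ATP6 (0.09) also took larger shares without overlap. Under si-snaR-A#2, MT-ND4L (0.16) and MT-ND5 (0.12) took larger shares and MT-ATP6 (-0.12) and MT-CO3 (-0.13) smaller ones, again without overlap. Lack of overlap was therefore common in this pool and does not single out MT-CO2 or MT-CYB. By complex, the complex III share was 5.09% ± 0.0277 in scramble, 5.33% ± 0.355 under si-snaR-A#1, 3.74% ± 0.273 under si-snaR-A#2 and 4.60% ± 0.0770 under si-snaR-A#3, while the complex V share lay above every scramble library under si-snaR-A#1 (15.1% ± 0.308 against 13.8% ± 0.343, SD, n = 3).

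**Figure D4:**
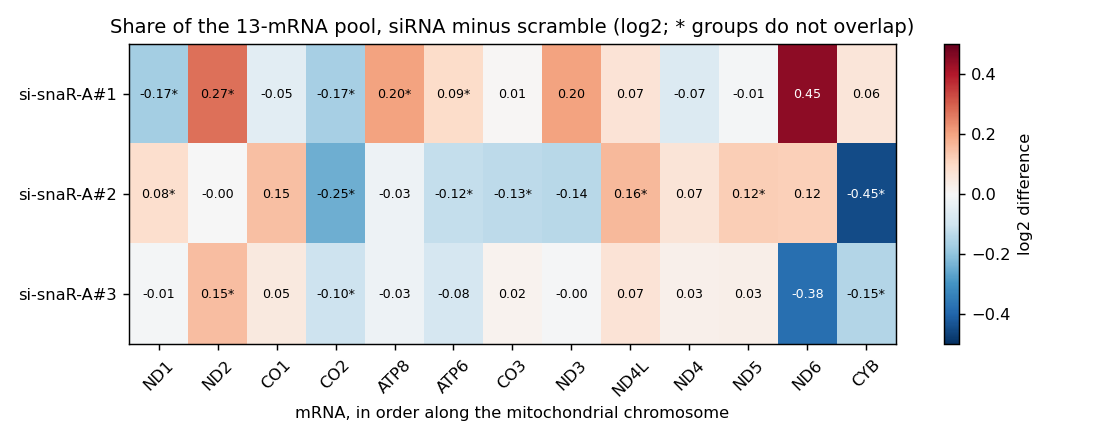
Difference from scramble (log2, colour and number) in the share each mRNA takes of the 13-mRNA pool, for each siRNA, in chromosomal order, with an asterisk where the 3 siRNA libraries do not overlap the 3 scramble libraries. MT-CO2 is lower with an asterisk in all 3 rows, and MT-CYB is lower with an asterisk in the si-snaR-A#2 (-0.45) and si-snaR-A#3 (-0.15) rows.

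Ratios between 2 mitochondrial genes in the same library do not depend on nuclear RNA either, and 5 were computed. The MT-RNR2 to MT-RNR1 ratio sets the large rRNA against the small one, which lies upstream in the same precursor. It was 4.63 ± 0.224 in scramble, 3.54 ± 0.385 under si-snaR-A#1, 5.85 ± 0.399 under si-snaR-A#2 and 5.12 ± 0.287 under si-snaR-A#3 (ratio of estimated counts, SD, n = 3 each). The libraries ran from 3.32 to 3.98 under si-snaR-A#1 and from 4.37 to 4.80 in scramble. Those of si-snaR-A#2 (5.39 to 6.11) and si-snaR-A#3 (4.93 to 5.45) were all higher, so each siRNA stood apart from scramble, si-snaR-A#1 on the other side from the remaining pair. The 9 siRNA libraries pooled gave no called difference from scramble (exact two-sided permutation p = 0.864). A permutation test over all splits into the 4 groups, chosen after seeing the data, gave exact p = 1.3e-04 (Benjamini-Hochberg over the 5 ratios, 6.49e-04). A single siRNA against scramble, 3 against 3, cannot go below p = 0.10 in an exact test and was not tested.

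The MT-ND6 to MT-CYB ratio sets the minus-strand mRNA against its neighbour on the plus strand. It was 0.159 ± 0.0224 in scramble, 0.207 ± 0.0196 under si-snaR-A#1, 0.234 ± 0.0145 under si-snaR-A#2 and 0.136 ± 0.0253 under si-snaR-A#3 (SD, n = 3 each). The libraries of si-snaR-A#1 (0.188 to 0.227) and si-snaR-A#2 (0.219 to 0.247) were all above scramble (0.144 to 0.184), and si-snaR-A#3 (0.121 to 0.165) overlapped it. The pooled test gave exact permutation p = 0.327 (adjusted over the 5 ratios 0.409), and the test over the 4 groups, chosen after seeing the data, gave exact permutation p = 0.00370 (adjusted 0.00925).

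The other ratios differed less. MT-RNR2 to MT-ND1 spans the point where part of the transcription has been proposed to end. It was 9.41 ± 0.573 in scramble, 9.15 ± 1.29 under si-snaR-A#1, 11.4 ± 0.685 under si-snaR-A#2 and 10.6 ± 0.560 under si-snaR-A#3 (SD, n = 3 each). Its test over the 4 groups gave exact permutation p = 0.0466, which did not pass after adjustment (0.0776). MT-ATP8 to MT-ATP6 was 0.453 ± 0.0115 in scramble, 0.490 ± 0.0181 under si-snaR-A#1, 0.484 ± 0.0329 under si-snaR-A#2 and 0.472 ± 0.00362 under si-snaR-A#3 (SD, n = 3 each), with a pooled exact permutation p = 0.0273 that did not pass after adjustment (0.136). MT-ND4L to MT-ND4 lay between 0.141 and 0.167 in all libraries (pooled exact permutation p = 0.0636, adjusted 0.159). MT-ATP8 and MT-ATP6 share 46 bases, and MT-ND4L and MT-ND4 share 7, so both ratios also carry the way in which shared reads were split.

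**Figure D5:**
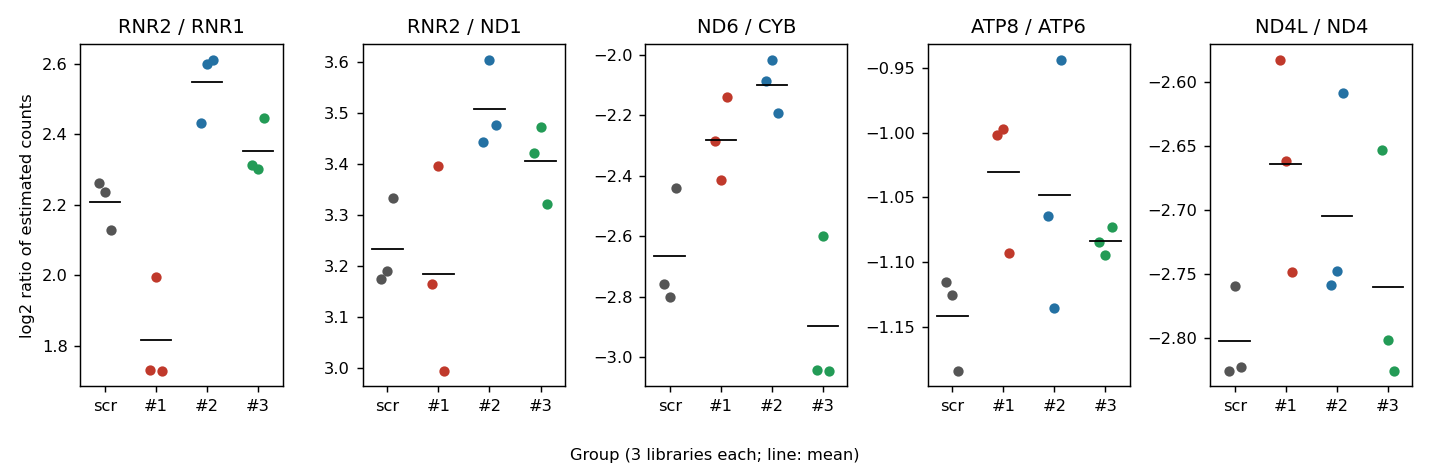
Log2 ratio of estimated counts between 5 pairs of mitochondrial genes in each library (points) with group means (lines), for scramble (scr) and si-snaR-A#1 to #3. In the MT-RNR2 to MT-RNR1 panel, the 3 si-snaR-A#1 points (1.73 to 1.99) lie below and the si-snaR-A#2 and si-snaR-A#3 points (2.30 to 2.61) above the scramble points (2.13 to 2.26).

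The 22 tRNAs, of 59 to 75 bases, were barely captured. Together they held between 73.6 and 159.7 counts in a library. MT-TW, MT-TK, MT-TG and MT-TL2 were at 0 in every library, where up to 3 counts would be allowed by a count of 0, and 10 tRNAs, these 4 among them, never exceeded 3 counts in a library. The 4 that could be tested were MT-TF, MT-TL1, MT-TA and MT-TE, with average levels of 0.271, 0.109, 0.0927 and 0.122 CPM. MT-TF, the tRNA upstream of MT-RNR1, had CPM values of 0.276, 0.218 and 0.297 in scramble, 0.161, 0.175 and 0.257 under si-snaR-A#1, 0.288, 0.320 and 0.257 under si-snaR-A#2 and 0.226, 0.386 and 0.388 under si-snaR-A#3. None of the 4 was called against scramble by edgeR with any siRNA, and 0 reached an unadjusted p under 0.05. In the direct comparison MT-TF was lower under si-snaR-A#1 than under si-snaR-A#3 with a difference of -0.74 (SE 0.27, adjusted p = 0.0381) on the log2 scale by edgeR. These groups overlapped, MT-TF had at most 52.5 counts in a library, and the call held in 13 of 20 alternatives (adjusted p up to 0.128). With all libraries the other 18 held too few counts to be tested, so a difference between groups in them could not be assessed. The 1 of them called higher under si-snaR-A#2 without si-snaR-A#2 replicate 3 also rests on low counts.

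Nuclear copies of mitochondrial sequence could share reads with the members. The table held 393 such copies, 292 of them at 0 in every library, and together they took between 0.0238% and 0.0361% of counts. The highest was MTATP6P1 (chr1:633696-634376) at 289 CPM, which matched chrM over 681 bases with 98.5% identity and 10 mismatches. MTND2P28 followed at 6.27 CPM (98.4% identity), then MTND4P12 at 1.62 CPM (95.8%), MTCO1P12 at 1.14 CPM (98.6%) and MTND1P23 at 1.08 CPM (99.2% over 353 bases). Of the 9 copies tested, edgeR called 0 against scramble with any siRNA, beside 45.2%, 25.8% and 29.4% of all genes in turn. It also called 0 with RLE or upper quartile factors. In the main fit, 1, 0 and 0 had an unadjusted p under 0.05 with the 3 siRNAs in turn. All but MTATP6P1 and MTND2P28 averaged 1.62 CPM or less, so the lack of calls does not show that they were stable. MTATP6P1 stood at 314 CPM in scramble, 276 under si-snaR-A#1, 286 under si-snaR-A#2 and 282 under si-snaR-A#3.

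RNAs without a poly(A) tail varied widely between libraries, also within scramble, and the 2 abundant ones of the signal recognition particle were lower under si-snaR-A#1. Of 14 such RNAs listed, 13 were found, 10 tested and 3 called lower under si-snaR-A#1 (0 with either other siRNA), a share near the 23.3% of all genes called lower there, and their summed share of counts ranged from 0.00254% to 0.0126% in scramble, 0.00238% to 0.00327% under si-snaR-A#1, 0.00187% to 0.0129% under si-snaR-A#2 and 0.00765% to 0.0125% under si-snaR-A#3. RN7SL1, an RNA of the signal recognition particle, averaged 25.9 CPM ± 22.4 in scramble and 2.54 CPM ± 0.177 (SD, n = 3 each) under si-snaR-A#1 (log2 fold change -3.35, SE 0.97, adjusted p = 0.0125 by edgeR), with 32.1 and 42.3 CPM under si-snaR-A#2 and si-snaR-A#3. RN7SL2, its near-identical copy with which it shares reads, averaged 36.5 and 4.15 CPM (log2 fold change -3.14, SE 0.96, adjusted p = 0.0171 by edgeR), and RN7SK, a regulator of transcription elongation, averaged 6.03 and 16.6 CPM and was not called. Annotated cytosolic rRNA took at most 7e-06% of a library. The part of RNA selection in the lower MT-RNR2 and mRNA levels under si-snaR-A#1 was not tested.

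The nuclear genes that copy, process and degrade mitochondrial RNA were counted beside the members. Of 63, all tested, 20 were called higher and 18 lower under si-snaR-A#1, 15 and 6 under si-snaR-A#2, and 21 and 8 under si-snaR-A#3, where all genes gave 21.9% and 23.3%, 13.7% and 12.1%, and 16.5% and 13%. In the mean of the 3 siRNAs 18 were higher and 14 lower, beside 15.6% and 16.6% of all genes. The split depended on scaling, being 10 and 10 under si-snaR-A#2, 12 and 14 under si-snaR-A#3 and 15 and 19 in the mean with upper quartile factors, and 20 and 9 in the mean with RLE factors. The shares of all genes called under these factors are not given here. The list medians were -0.00053, 0.05 and 0.06 on the log2 scale for the 3 siRNAs in turn, beside -0.02, -0.03 and -0.03 for all genes.

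Among the transcription and genome maintenance genes, POLRMT, the mitochondrial RNA polymerase, rose under si-snaR-A#1 (0.64, SE 0.044, adjusted p = 1.40e-07), si-snaR-A#2 (0.18, adjusted p = 0.00834) and si-snaR-A#3 (0.18, adjusted p = 0.00658), all log2 fold changes by edgeR. TOP1MT, the mitochondrial type I topoisomerase, rose from 30.3 CPM in scramble to 66.9 CPM under si-snaR-A#1 (1.14, SE 0.042, adjusted p = 1.29e-09), and by 0.46 and 0.56 with the other siRNAs. MGME1, an exonuclease of mitochondrial DNA replication, fell from 80.3 CPM in scramble to 56 CPM under si-snaR-A#1, 67.3 CPM under si-snaR-A#2 and 51.0 CPM under si-snaR-A#3 (mean log2 fold change -0.48, SE 0.04, adjusted p = 2.15e-06 by edgeR). TFAM, which packages the genome and starts transcription, was not called with any siRNA (-0.11, -0.07 and 0.0093).

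Among the processing and stability genes, PRORP, the nuclease that cuts the 5′ ends of mitochondrial tRNAs, fell with a difference of -0.41 (SE 0.043, adjusted p = 1.21e-05) and TRMU, a tRNA-modifying enzyme, with a difference of -0.33 (SE 0.054, adjusted p = 4.83e-04) on the log2 scale in the mean of the 3 siRNAs by edgeR. Both were called with each siRNA, but the PRORP call under si-snaR-A#1 was lost without scramble replicate 3 or si-snaR-A#1 replicate 3, and the TRMU call under si-snaR-A#2 without scramble replicate 1 or si-snaR-A#2 replicate 2 or 3. RPUSD4, a pseudouridine synthase of the large mitochondrial rRNA, rose by 0.40 (SE 0.03, adjusted p = 9.69e-07), RCC1L, a mitochondrial ribosome assembly factor, by 0.45 (SE 0.044, adjusted p = 6.76e-06) and MTPAP, the mitochondrial poly(A) polymerase, by 0.30 (SE 0.03, adjusted p = 9.65e-06) in the same mean, and each was called with all 3 siRNAs. LRPPRC, which with SLIRP stabilises the mRNAs, fell under si-snaR-A#1 (-0.20, SE 0.048, adjusted p = 0.00465) and rose under si-snaR-A#2 (0.34, SE 0.048, adjusted p = 2.33e-04) and si-snaR-A#3 (0.16, SE 0.048, adjusted p = 0.0219), the last lost with upper quartile factors and without scramble replicate 2 or si-snaR-A#3 replicate 2. SLIRP fell under si-snaR-A#2 (-0.31, SE 0.048, adjusted p = 3.91e-04) and was not called with the others.

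FASTKD5, which matures mRNAs that no tRNA borders, rose under si-snaR-A#2 (0.19, SE 0.046, adjusted p = 0.00921) and si-snaR-A#3 (0.40, SE 0.046, adjusted p = 4.04e-05), log2 fold changes by edgeR. Of the RNA decay pair, SUPV3L1 fell under si-snaR-A#3 (-0.20, SE 0.047, adjusted p = 0.00575) and PNPT1 rose with it (0.13, SE 0.039, adjusted p = 0.0192), the PNPT1 call being lost with upper quartile factors and without scramble replicate 1, scramble replicate 3 or si-snaR-A#3 replicate 3. Exons of LRPPRC, SLIRP, MTPAP, FASTKD5, RCC1L and PRORP overlap those of other annotated genes, so their counts are less certain.

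Nuclear genes for subunits of the same complexes were a further comparison. Of 72 tested, 8 were called higher and 30 lower under si-snaR-A#1, 18 and 5 under si-snaR-A#2, and 18 and 9 under si-snaR-A#3, beside 21.9% and 23.3%, 13.7% and 12.1%, and 16.5% and 13% of all genes. With upper quartile factors, for which the shares of all genes are not given, the counts were 9 and 30, 12 and 6, and 14 and 10. The list medians were -0.08, 0.07 and 0.04 on the log2 scale in turn, the last being -0.0094 with upper quartile factors. For complex IV, 6 of 11 nuclear subunits were lower and 0 higher under si-snaR-A#1, beside 23.3% and 21.9% of all genes. With the same siRNA, 13 of 35 were lower and 4 higher for complex I, and 7 of 17 lower and 1 higher for complex V. For complex III, 4 of 9 were lower and 3 higher under si-snaR-A#1, beside the same shares, and 1 was called in each direction under si-snaR-A#2, beside 12.1% lower and 13.7% higher.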

How the data were processed

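Per the labels and the methods of the study, reads were trimmed with TrimGalore and assigned to transcripts with Salmon on hg38, and the authors deposited estimated counts per gene with no scaling to depth. The annotation release is not given in the sources used here. Symbols, positions and sequences came from GENCODE release 44 and hg38, and 58160 of the 63541 IDs were matched. Rescaling by transcript length is possible, as 0% of positive values were whole numbers, while 77.8% of values near 1 lay within 0.05 of 1. Floors of 3 counts are therefore approximate and cover counting error only. Counts were rounded, filtered with filterByExpr on the 4 groups (21999 genes), scaled by TMM (factors 0.956 to 1.09) and fitted over all 12 libraries with the quasi-likelihood test of edgeR 4.0.16 in R 4.3.3. P-values were adjusted by Benjamini-Hochberg over all genes tested. DESeq2 1.42.0, other factors and filters, edgeR's exact test, a replicate block and the loss of each library were alternatives. Ratios used exact two-sided permutation tests in SciPy 1.17.1. Scripts were tested on simulated counts. The members and lists were chosen with earlier results of these data known. All members may be named. From the RNA-metabolism list, TFAM, POLRMT, LRPPRC, SLIRP, MTPAP, PNPT1, SUPV3L1 and FASTKD5 were named always, with those with the greatest log2 changes averaged over the siRNAs, up to 4 per direction, where all 3 siRNAs gave the same call. The 5 most abundant nuclear copies and the 3 most abundant RNAs without a poly(A) tail were named. NDUFS1 and RNU1-1 were not analysed here.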

Additional observations from a re-analysis of the deposited data

How the results depend on the processing

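Settings that kept all libraries were other scaling factors, other filters, unrounded counts, DESeq2, edgeR's exact test, the replicate block and other denominators. Over these, 67 of 79 summary values were classed as unmoved and 12 counts of calls as moved. Shares were unmoved within the replicate spread, ratios on the same side of the threshold, and counts within a set fold of the main count. Smaller changes in counts are therefore among the 67. MT-CYB was gained in the mean with upper quartile factors, a filter at a mean of 1 CPM and no filter. MT-ND4L was gained under si-snaR-A#1 without a filter and by the exact test. The count under si-snaR-A#2 (2) was 1 without a filter on low counts, that under si-snaR-A#3 (0) was 1 without the filter and 1 by the exact test, and that for si-snaR-A#2 against si-snaR-A#3 (0) was 1 in each of these and 1 by DESeq2. The count for si-snaR-A#1 against si-snaR-A#3 (6) was 2 with upper quartile factors, 3 with a filter at a mean of 1 CPM, 10 without a filter and 3 by DESeq2. With the replicate number as a block, the counts were 1 under si-snaR-A#2, with 3 for si-snaR-A#1 against si-snaR-A#3. Replicates share only a number here: correlations of the deviations of same-numbered libraries ran from -0.27 to 0.20 (median -0.03) over 18 pairs, and 5 of 12 libraries correlated best with their own number. No cause of these shifts was tested. The shares of all genes called in each setting, or without each library as described next, are not given here.

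Leaving out 1 library at a time gave counts from 3 to 10 under si-snaR-A#1, 0 to 2 under si-snaR-A#2, 0 to 1 under si-snaR-A#3, 0 to 4 in the mean of the 3, 3 to 7 for si-snaR-A#1 against si-snaR-A#2, 2 to 9 for si-snaR-A#1 against si-snaR-A#3, with 0 to 1 for si-snaR-A#2 against si-snaR-A#3. The difference in mitochondrial share ran from -1.65 to -1.01 percentage points under si-snaR-A#1, -0.524 to 0.112 under si-snaR-A#2, -1.01 to -0.128 under si-snaR-A#3 and -1.02 to -0.386 in their mean, and the pooled log2 MT-RNR2 to MT-RNR1 difference from -0.0159 to 0.0943.

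No gene that changed sign had been called with all libraries. With all libraries these were, on the log2 scale, MT-ND4 under si-snaR-A#2 (0.020 with RLE factors, 0.0039 without a filter and 0.020 by DESeq2), MT-ND1 under si-snaR-A#2 (-0.032), MT-ND2 (-0.019), MT-RNR2 (-0.0076) and MT-TE (-0.046) under si-snaR-A#3 and MT-TF in the mean (-0.018), all with upper quartile factors, MT-TE under si-snaR-A#3 also with unrounded counts (-5.8e-04) and with the replicate block (-0.088), and MT-TF in the mean with the block (-3.9e-04). Without 1 library, their ranges were MT-ND6 -0.11 to 0.26 under si-snaR-A#1. They were MT-ATP8 -0.22 to 0.038, MT-CO1 -0.069 to 0.19, MT-ND1 -0.078 to 0.11, MT-ND2 -0.16 to 0.020, MT-ND4 -0.10 to 0.086, MT-ND5 -0.037 to 0.15, MT-ND6 -0.089 to 0.15, MT-RNR1 -0.16 to 0.038, MT-TA -0.25 to 0.074, MT-TL1 -0.074 to 0.50 under si-snaR-A#2. They were MT-CO1 -0.24 to 0.069, MT-CO3 -0.24 to 0.013, MT-ND1 -0.29 to 0.0095, MT-ND2 -0.095 to 0.15, MT-ND4 -0.28 to 0.082, MT-ND4L -0.21 to 0.067, MT-ND5 -0.25 to 0.030, MT-RNR1 -0.17 to 0.0055, MT-RNR2 -0.073 to 0.17, MT-TE -0.68 to 0.38 under si-snaR-A#3, and MT-ND2 -0.13 to 0.033, MT-ND4L -0.18 to 0.010, MT-TF -0.10 to 0.11 in the mean. Arms left with 2 libraries keep the spread estimated over all groups, and the tRNAs are limited by depth.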
